A study of Bos taurus with 13 samples.

Results

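Gene expression in bovine liver was set against that in 7 other bovine tissues on a mammary cDNA microarray. The comparison used 8 of the 13 arrays of the series: 1 array of liver, and 1 array each of adipose tissue, adrenal tissue, ileum, lymph tissue, spleen, thymus and prepubertal mammary gland. For each gene, the mean over the 7 other tissues was subtracted from the liver value, and 695 of the 706 genes named on the array were measured on all 8 arrays. Every array was a hybridisation with 2 channels, with RNA of the tissue in channel 2 and RNA of the BovMac cell line, the common reference, in channel 1. The mammary gland came from a Holstein heifer of 136 kg before puberty. For the other 7 tissues the labels give no breed, age, sex, treatment or number of animals, and for the lymph tissue no organ. In 2 further arrays both channels held the reference, and the remaining arrays compared mammary glands with each other and were not used. No tissue had a second array, so no test of a difference was made: an exact permutation of 1 array against 7 could not go below 0.125.

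The liver, mainly through its hepatocytes, secretes most plasma proteins, among them complement, clotting factors and protease inhibitors, and carries out much of the body's amino acid, sterol and xenobiotic metabolism. In ruminants it also makes most of the glucose, largely from propionate, while fatty acids are synthesised mainly in adipose tissue and in the lactating udder. Spleen, thymus and lymph tissue are lymphoid, and the ileum holds lymphoid patches, so these tissues carry many leukocytes and cells that present antigen on major histocompatibility complex (MHC) class II molecules.

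The deposited value was a log ratio per spot whose base no source used here gives. The labels name the RNA in each channel, but not which channel was divided by which (the order of channels in the ratio). Values are therefore in log units with no conversion to fold. A positive difference means that the deposited ratio was higher in liver than in the mean of the other tissues, and with the order of channels turned on all arrays every sign below would turn with it. Whether the 8 arrays shared 1 order is not stated either, and if a single array had the opposite order, differences and ranks would take other values. A gene's value is a ratio to the reference and shows nothing about its level relative to another gene. Among the tissue arrays the lowest Pearson correlation over all spots was that of liver with adrenal tissue, at -0.15 (-0.32 over the 695 genes), and that with spleen was the highest for liver, at 0.20. Without adrenal tissue the counts given below as 4 genes above and 9 below were 5 and 10.

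The 8 arrays had 3695 to 3764 spots with a ratio, and 3712 on the liver array. Spots printed from the same clone correlated with a mean Spearman rho of 0.59 on the liver array and of 0.53 to 0.85 over the 8 arrays. The arrays of ileum and mammary gland stood apart: of 144 successive spots without annotation, 69.4% were exactly 0 on the ileum array and 67.4% on the mammary array, where the other tissues had 98.6% to 100%. Differences were therefore also taken against the other 5 tissues alone (adipose, adrenal and lymph tissue, spleen and thymus), and that value is given where it turned the sign or moved a difference of 0.1 or more by over 1.5 times. The ileum array also had the widest ratios of the tissue arrays. Its SD over all spots was 0.62 log units, against 0.37 on the mammary array and 0.23 to 0.30 on the other tissue arrays. On the arrays with reference RNA in both channels, the SD over all spots was 0.40 and 0.66 log units, against 0.24 on the liver array. Spots of the same clone correlated there with a mean rho of 0.57 and 0.12, so spots on the second array repeated poorly.

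Most genes differed little between liver and the mean of the other tissues. Over the 695 genes the difference had a median of -0.0028 log units, an SD of 0.20 and an interquartile range of -0.12 to 0.13. The median SD over a gene's liver spots was 0.08, and the median SD over the 7 other tissues was 0.17. At a size of 0.5 log units, 4 genes (0.576%) lay above the other tissues and 9 (1.29%) below, 13 in all (1.87%). At 0.3 log units these numbers were 42 (6.04%) and 24 (3.45%), so that the side with more genes depended on the size chosen. With all arrays scaled to the same median absolute deviation, 16 genes lay at least 0.5 above and 12 at least 0.5 below, which is 57.1% above in place of 30.8%. The liver value was the highest of the 8 tissues in 89 genes (12.8%) and the lowest in 66 (9.5%), so that it stood at an end of the range in 155 (22.3%). Positive and negative differences were about as many, with 49.1% and 50.9% of genes. The same measure gave 49 genes above and 60 below for ileum and 5 and 21 for adrenal tissue. For lymph tissue it gave 0 above and 4 below.

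The genes at least 0.5 below the other tissues were C3, BOLA-DRB3, ASF1A, CD47, ANXA8L1, EP400, ELOA, MAP7 and KLF10. In 8 of these 9 the ileum was the highest of the other tissues, as it was in 25.9% of all genes, and 3 of the 9 (C3, CD47 and ANXA8L1) stayed at least 0.5 below against the other 5 tissues. For C3 and CD47 a liver spot, at -3.57 and -0.91, lay far from the other liver spots. For ANXA8L1 the 5 tissues included an adrenal spot at 2.30, far from the other adrenal spots. Differences against the 5 tissues were not taken without these spots. The genes at least 0.5 above were ARPC5, C6H4orf19, TRA2A and KCTD20, of which 3 stayed there against the 5 tissues and C6H4orf19, at 0.32, did not. Nearest to the threshold were KCTD20 at 0.52 and KLF10 at -0.54 inside it, and RAB3D at 0.47 and IGSF5 at -0.49 outside it. Over all genes, the sign was the same against the 7 and against the 5 tissues in 89.4% of genes.

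**Figure D1:**
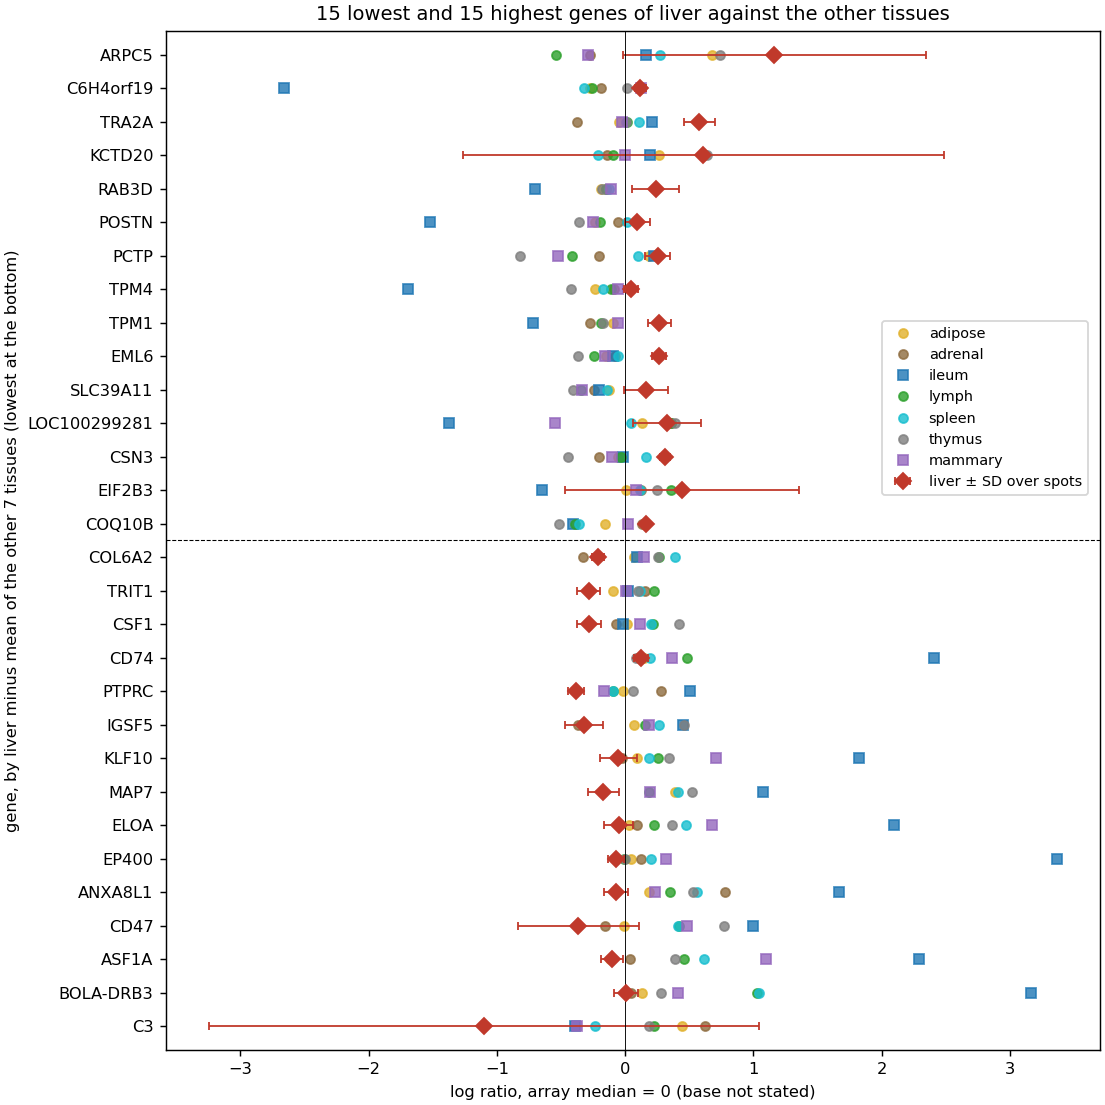
Log ratios (array median = 0, base not stated) of the 15 genes with the lowest and the 15 with the highest difference between liver and the mean of the other 7 tissues; red diamonds are liver with the SD over its spots, squares are ileum and mammary gland, circles the other tissues, and the dashed line parts the lowest from the highest. Ileum was the highest of the other tissues in 10 of the 15 lowest genes, and the long bars of C3, KCTD20, ARPC5 and EIF2B3 mark liver spots that disagreed.

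**Figure D2:**
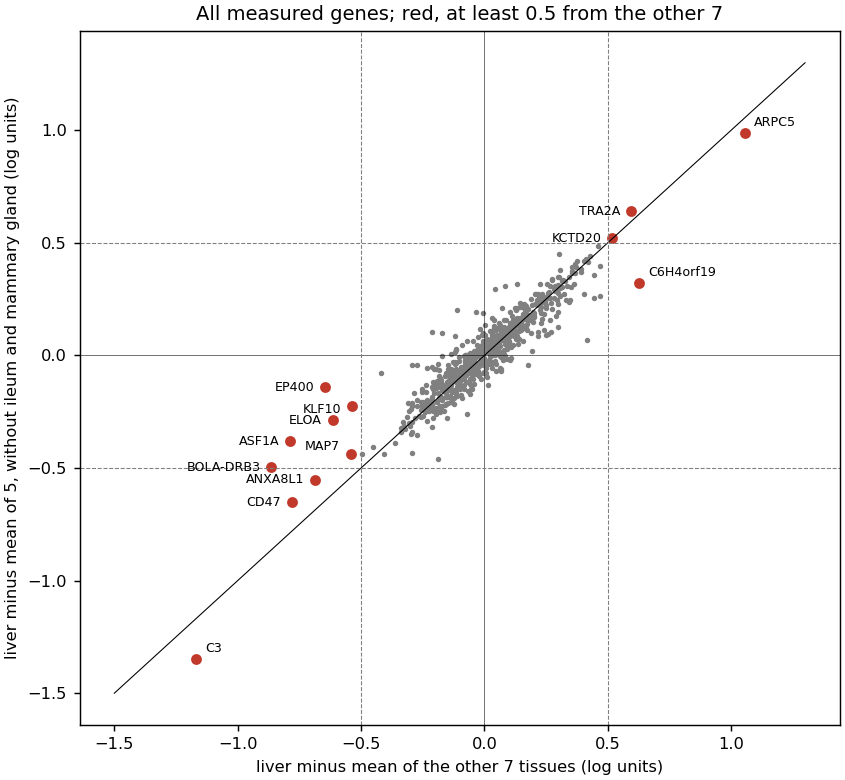
Each point is a gene, by liver minus the mean of the other 7 tissues (x axis, log units) and liver minus the mean of the 5 left without ileum and mammary gland (y axis, log units); the diagonal is equality, dashed lines are at 0.5 and -0.5, and red points are the 13 genes past 0.5 on the x axis. EP400 moved from -0.65 to -0.14 and CD47 from -0.78 to -0.65.

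The 3 markers of hepatocytes on the array, of 27 listed, were complement component C3, the protease inhibitor A2M (alpha-2-macroglobulin) and the fibrinogen gamma chain FGG. They did not lie together: C3 and A2M were below the other tissues and FGG above, and none was the highest in liver. C3 lay at -1.10 ± 2.15 log units (SD, n = 3 spots) on the liver array, against 0.44 in adipose tissue, 0.62 in adrenal tissue, -0.39 in ileum, 0.22 in lymph tissue, -0.24 in spleen, 0.19 in thymus and -0.37 in mammary gland. Its difference of -1.17 rested on a single spot, since the liver spots were at 0.34, -0.07 and -3.57. Without the last of these C3 was at 0.13 in liver and differed from the other tissues by 0.07, so its place below them was that of 1 spot. C3 read -0.88 and -0.28 on the reference arrays, the latter from a single spot.

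A2M lay at -0.27 ± 0.04 (SD, n = 3 spots) in liver, between adrenal tissue at -0.38 and lymph tissue at -0.13, with spleen at 0.15, mammary gland and ileum at 0.04, adipose tissue at 0.25 and thymus at 0.39. Its difference was -0.32 against the 7 tissues and -0.33 against the 5. The liver spots agreed closely (-0.24, -0.31 and -0.27), and the value sat inside the range of the other tissues. The reference arrays gave A2M 0.07 and 0.75. FGG lay at 0.21 ± 0.08 (SD, n = 6 spots) in liver, second to mammary gland at 0.44 and above spleen at 0.12, thymus at 0.10, lymph tissue at 0.07, adipose tissue at 0.03, adrenal tissue at -0.06 and ileum at -0.07. Its difference of 0.12 was unequal between its clones, at 0.20 and 0.04. Against the 5 tissues it was 0.16, with the liver above each of them. The liver spots of FGG ran from 0.13 to 0.33. On the first reference array its spots ran from 0.14 to 0.35, as high as in liver, and on the second from -0.33 to 0.54.

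The other measured members of the list of plasma proteins and acute phase genes were the complement protease C1R, the lipopolysaccharide-binding protein LBP and the iron-binding lactoferrin LTF. C1R was at 0.02 in liver and differed by -0.19, with -0.21 and -0.16 for its clones. LBP, at -0.15, differed by -0.06. LTF, at 0.22, differed by 0.09. Of the 6 measured plasma protein genes, of 111 listed, 2 (33.3%) were above and 4 (66.7%) below the other tissues, beside 49.1% and 50.9% of all genes. C3 was the 1 past 0.5, beside 1.29% of all genes below. The list had a median difference of -0.12, against -0.0028 for all genes. Without the liver spot farthest from the others in each gene, that median was 0.03.

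**Figure D3:**
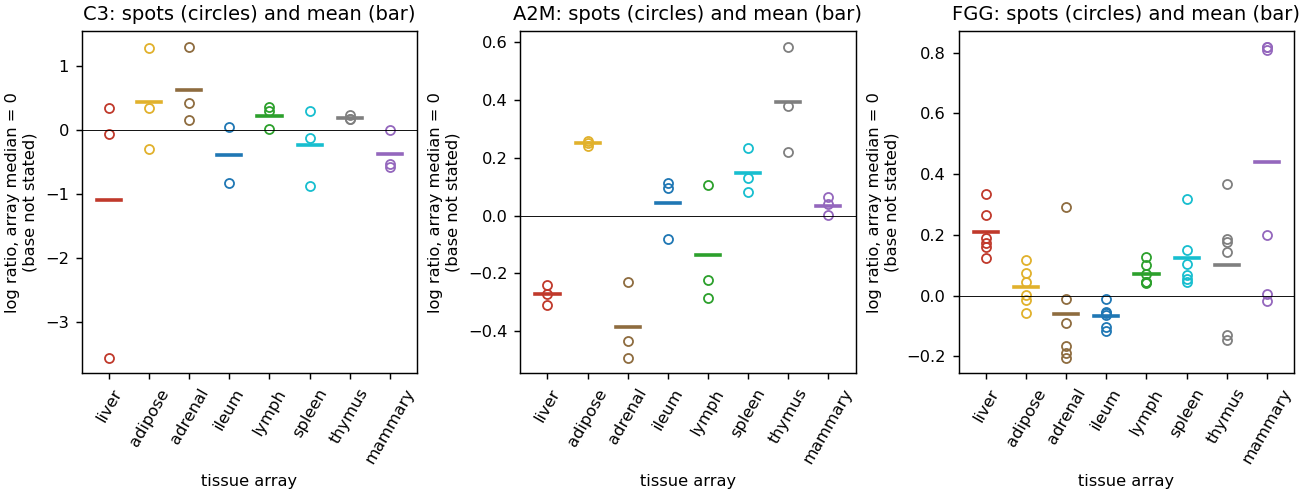
Log ratio of every spot (circles; array median = 0, base not stated) and the mean (bars) of C3, A2M and FGG on each tissue array. The single C3 spot at -3.57 set the liver mean of -1.10, whereas the liver spots of A2M and FGG lay close together.

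Markers of other cells that liver or the compared tissues hold were few on this array. MPEG1, a macrophage gene and the single one measured of 13 for Kupffer cells and macrophages, lay at 0.09 in liver and differed by 0.09. Of the endothelial genes, EMCN differed by -0.18, and CAV1 by 0.07 against the 7 tissues but by -0.06 against the 5. Both measured fibroblast genes were highest in liver, as were 12.8% of all genes. POSTN (periostin, a matrix protein) differed by 0.47, and by 0.26 against the 5 tissues, and COL5A2 (a collagen chain) by 0.29 and 0.17. The liver spots of POSTN, at 0.01 to 0.27, overlapped those of spleen, at -0.04 to 0.06. For bile duct epithelium, EPCAM differed by -0.29, with ileum at 1.94, and by -0.04 against the 5 tissues, and KRT7 by 0.17. No gene of the red cell, adipocyte, adrenal cortex or ileum epithelium lists was measured. Of mammary epithelium 7 genes of 10 were measured, and their values are given last. The few genes measured did not settle the label of liver. In these bulk RNA samples, a difference in the share of a cell type and one in RNA per cell cannot be told apart.

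Of 28 measured immune genes in 3 lists, 17 (60.7%) were below the other tissues and 11 above, beside 50.9% of all genes below. Against the 5 tissues 15 (53.6%) were below and 13 above, beside 48.6% of all genes below, so the balance of sides was near that of all genes. Against the 7 tissues 2 lay at least 0.5 below and 0 at least 0.5 above, and the median difference was -0.09, or -0.05 against the 5 tissues. At 0.3 log units, 5 of the 28 (17.9%) lay below, beside 3.45% of all genes, and 0 lay above. These were BOLA-DRB3, CD47, PTPRC, CD74 and CSF1, of which CD74 was not past this size against the 5 tissues, leaving 4 (14.3%), beside 3.02% of all genes. The liver was the lowest tissue in 8 of them (28.6%), beside 9.5% of all genes, and the highest in 3 (10.7%), beside 12.8%.

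Of the 5 antigen presentation genes, 4 (80%) lay below and 1 above, beside 50.9% of all genes below. Their median was -0.17 and came to -0.04 against the 5 tissues. BOLA-DRB3, the beta chain of the cattle MHC class II molecule DR, lay at 0.01 ± 0.09 (SD, n = 3 spots) in liver, 0.05 in adrenal tissue, 0.13 in adipose tissue, 0.28 in thymus, 0.42 in mammary gland, 1.03 in lymph tissue, 1.04 in spleen and 3.17 in ileum. The liver was the lowest, 0.04 below adrenal tissue, which is within the SD over its spots. Its difference of -0.86 came to -0.495 against the 5 tissues, where spleen and lymph tissue were high. CD74, the invariant chain that escorts class II molecules, was at 0.12 ± 0.06 (SD, n = 3 spots) in liver, 0.08 in thymus, 0.11 in adrenal tissue, 0.15 in adipose tissue, 0.19 in spleen, 0.37 in mammary gland, 0.48 in lymph tissue and 2.41 in ileum. Its difference of -0.42 was thus mostly that of the ileum, and it was -0.08 without ileum and mammary gland. TAP1, a transporter of peptides for class I loading, differed by -0.15 with ileum at 0.83, and by -0.04 against the 5. The gene listed as BOLA differed by -0.17 with ileum at 1.62, and by 0.10 against the 5. PDIA3, a chaperone of class I loading, differed by 0.17, or 0.11 against the 5, and was the member above. Near-identical MHC genes can share signal on a cDNA array, so the values of both BOLA genes are uncertain.

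Among 11 leukocyte genes, 8 (72.7%) lay below and 3 above, beside 50.9% of all genes below. Their median was -0.09 against the 7 tissues and -0.10 against the 5. PTPRC (CD45), the phosphatase on all white blood cells, was at -0.38 ± 0.06 (SD, n = 3 spots) in liver, against -0.16 in mammary gland, -0.10 in lymph tissue, -0.09 in spleen, -0.02 in adipose tissue, 0.06 in thymus, 0.28 in adrenal tissue and 0.50 in ileum. All 3 liver spots lay below the mean of every other tissue, as in 4.03% of all genes. The difference of -0.45 was -0.41 against the 5 tissues. Spleen and lymph tissue, which are rich in white blood cells, lay below adipose and adrenal tissue for PTPRC. On the reference arrays PTPRC read -0.18 and -0.19, the latter a mean of spots at 0.44, 0.29 and -1.28.

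CD47, the surface signal that protects cells from phagocytosis, was at -0.36 ± 0.47 (SD, n = 3 spots) in liver, -0.16 in adrenal tissue, -0.01 in adipose tissue, 0.41 in spleen, 0.42 in lymph tissue, 0.49 in mammary gland, 0.77 in thymus and 1.00 in ileum. The liver mean was the lowest, but its spots lay at -0.08, -0.11 and -0.91. The difference of -0.78 was -0.51 without the last spot and -0.65 against the 5 tissues. The reference arrays spread further, at -1.14 and 0.50, the latter from a single spot. LGALS9 (galectin 9) differed by -0.19, or -0.11 against the 5 tissues. PTPN6, a phosphatase that damps receptor signalling, differed by -0.18 with ileum at 0.61, and by -0.10 against the 5. For the inhibitory Fc receptor FCGR2B the difference was -0.11. On the other side, the complement regulator CD46 differed by 0.15 and was highest in liver, and CD99 differed by 0.14.

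Of the 12 cytokine and innate signalling genes, 7 (58.3%) lay above and 5 below, beside 49.1% of all genes above. This balance was near that of all genes, and the median was 0.07, or 0.09 against the 5 tissues. CSF1, the growth factor of macrophages, lay apart from the rest at -0.28 ± 0.09 (SD, n = 3 spots) in liver. The other tissues were at -0.07 (adrenal tissue), -0.02 (ileum), 0.01 (adipose tissue), 0.12 (mammary gland), 0.20 (spleen), 0.21 (lymph tissue) and 0.42 (thymus). All its liver spots lay below every other tissue, and the difference was -0.41 against the 7 and -0.44 against the 5 tissues, so it did not rest on ileum or mammary gland. CSF1 read -0.17 and 0.21 on the reference arrays. NFKBIZ, an inducible regulator of NF-kappaB targets, was highest in liver, at 0.19 ± 0.07 (SD, n = 3 spots), above adrenal tissue at 0.14, mammary gland at -0.0041, lymph tissue at -0.05, ileum at -0.07, spleen at -0.11, adipose tissue at -0.14 and thymus at -0.38. Its difference was 0.28, and its margin over adrenal tissue of 0.06 was within the SD over the liver spots. The cytokine IL6 differed by 0.21, the cytokine receptor chain CSF2RB by 0.22 (0.08 against the 5 tissues), and the adaptor TRAF6 by 0.20. Of the kinases that act after Toll-like receptors, IRAK1 differed by 0.10, IRAK2 by -0.10 and IRAK4 by -0.13 (-0.08 against the 5).

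**Figure D4:**
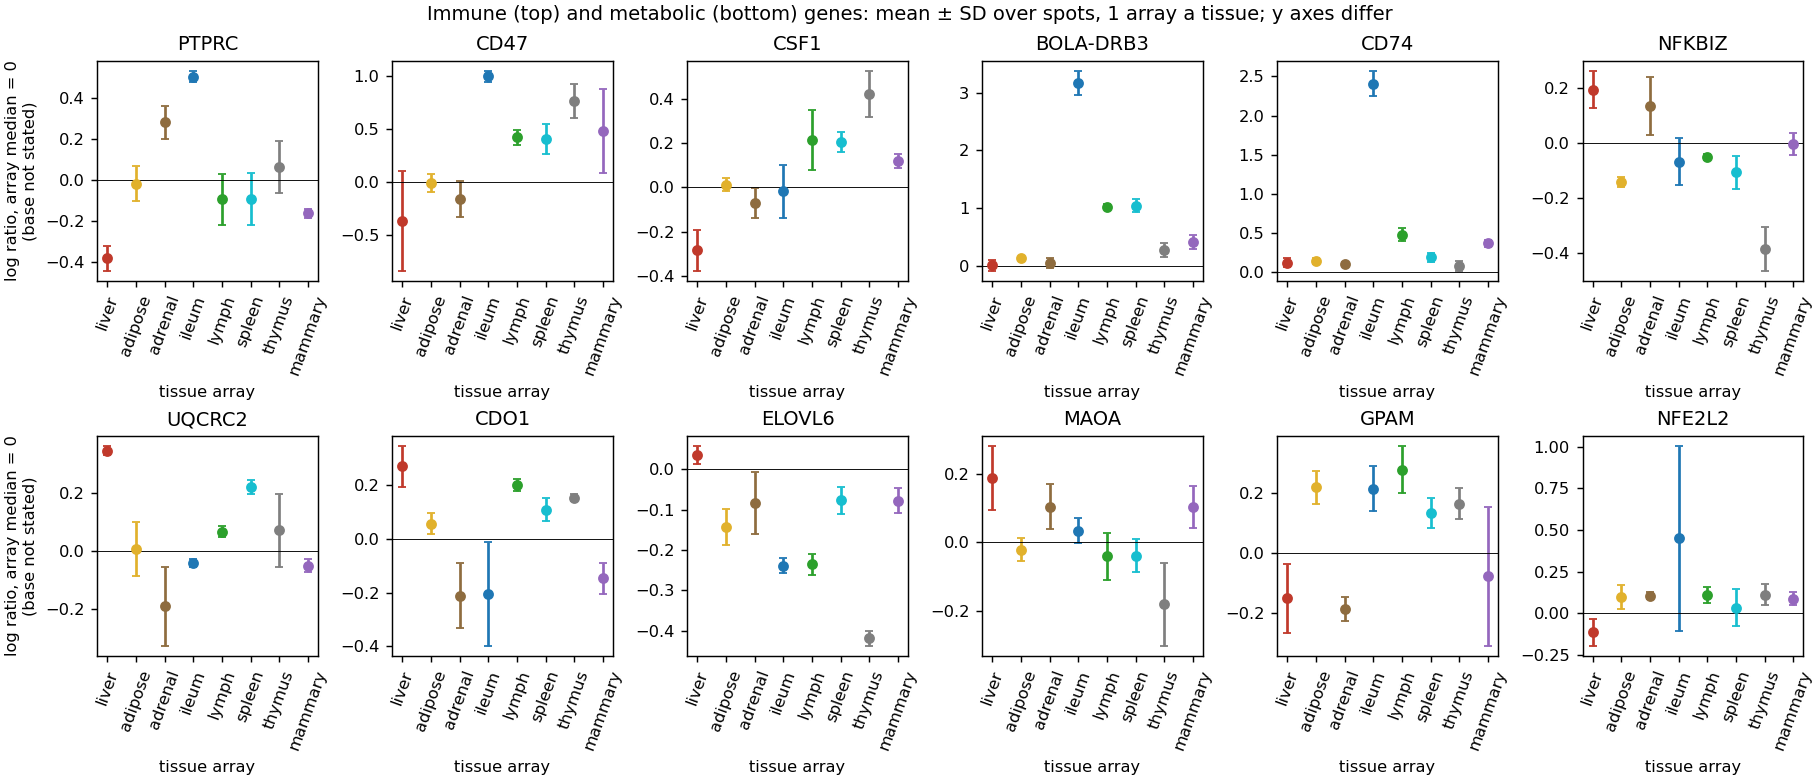
Log ratio (array median = 0, base not stated) of 6 immune genes (top) and 6 metabolic genes (bottom) on the 8 tissue arrays, as the mean and SD over spots, with 1 array a tissue and a y axis of its own in each panel. PTPRC and CSF1 were lowest in liver, and BOLA-DRB3 and CD74 were highest in ileum at 3.17 and 2.41, BOLA-DRB3 with spleen and lymph tissue next. UQCRC2, CDO1, ELOVL6 and MAOA had their highest mean in liver, and the bars of CDO1 and MAOA reached the mean of the next tissue.

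Metabolic genes lay on both sides in shares near those of all genes. Of 69 genes in 5 lists, 34 (49.3%) were above and 35 (50.7%) below the other tissues, beside 49.1% and 50.9% of all genes. On either side 0 passed 0.5 log units, beside 0.576% of all genes above and 1.29% below. The differences ran from -0.26 to 0.33 with a median of -0.0031. At 0.3 log units 1 gene (1.45%) lay above, beside 6.04% of all genes, and 0 lay below, beside 3.45%. The liver was the highest tissue in 5 of the 69 (7.25%) and the lowest in 2 (2.9%), beside 12.8% and 9.5% of all genes.

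Of the 11 carbohydrate and energy genes, 5 lay above and 6 below. UQCRC2, a core subunit of respiratory complex III, was the gene past 0.3. It lay at 0.35 ± 0.02 (SD, n = 3 spots) in liver, against 0.22 in spleen, 0.07 in lymph tissue and thymus, 0.01 in adipose tissue, -0.04 in ileum, -0.05 in mammary gland and -0.19 in adrenal tissue. All liver spots (0.35, 0.33 and 0.36) lay above the mean of every other tissue, as in 6.33% of all genes. The difference was 0.33 against the 7 and 0.31 against the 5 tissues. On the reference arrays UQCRC2 read 0.06 and -0.01. ALDOC, a glycolytic aldolase, differed by 0.19, and PDHA1, a subunit of pyruvate dehydrogenase, by 0.12. NNT, the mitochondrial transhydrogenase that makes NADPH, differed by -0.19, and the outer membrane channel VDAC3 by -0.16 (-0.09 against the 5 tissues). PDK4, the kinase that shuts pyruvate dehydrogenase, differed by -0.05.

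The 25 lipid genes lay 13 above and 12 below, with a median of 0.02 and differences of -0.26 to 0.25. Of the enzymes of fatty acid synthesis, ACLY, which makes cytosolic acetyl-CoA, differed by 0.18, the elongase ELOVL6 by 0.22 and the desaturase SCD by 0.22, and ACLY and ELOVL6 were highest in liver. ELOVL6 lay at 0.04 ± 0.02 (SD, n = 3 spots) in liver and between -0.42 (thymus) and -0.08 elsewhere, so that all its liver spots were above the other tissues. The SCD clones disagreed, at 0.39 and 0.03, and against the 5 tissues the gene differed by 0.10. ASAH1, the lysosomal ceramidase, differed by 0.25. On the other side was GPAM, the mitochondrial acyltransferase that starts triglyceride synthesis, at -0.15 ± 0.11 (SD, n = 3 spots) in liver. The other tissues had GPAM at -0.19 (adrenal tissue), -0.08 (mammary gland), 0.13 (spleen), 0.16 (thymus), 0.21 (ileum), 0.22 (adipose tissue) and 0.28 (lymph tissue), so liver lay inside their range and its difference was -0.26. IDI1, of the isoprenoid pathway, differed by -0.21 with mammary gland at 0.97. Several genes of fatty acid breakdown lay close to the mean of the other tissues. CPT2 differed by -0.06, ACADS by -0.01 (0.10 against the 5 tissues), ACAT1 by 0.04, ACSL1 by 0.05 and ECHS1 by 0.05. Farther from it were ACOX2, at -0.13 and lowest in liver, and PHYH, of the added enzymes given below, at 0.26 and highest in liver. PCCB, a subunit of the carboxylase through which propionate enters metabolism, differed by -0.12, and MMUT, the mutase of the same route, by -0.08.

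Among 17 genes of amino acids, nucleotides and one-carbon units, 9 lay above and 8 below, with a median of 0.0032. CDO1, the cysteine dioxygenase that starts taurine formation, was highest in liver at 0.27 ± 0.08 (SD, n = 3 spots). It stood at 0.20 in lymph tissue, 0.15 in thymus, 0.11 in spleen, 0.06 in adipose tissue, -0.15 in mammary gland and -0.21 in adrenal tissue and ileum. The CDO1 difference was 0.28, and its margin of 0.07 over lymph tissue was within the SD over its spots. NT5C2, a nucleotidase, differed by 0.29 with liver at 0.16, below adipose tissue at 0.23. The spermidine acetyltransferase SAT1 differed by -0.16 and HPRT1, of purine salvage, by -0.14. In the methionine cycle, MAT2A differed by -0.02, MAT2B by 0.0032, AHCY by -0.07 (-0.16 against the 5 tissues) and AHCYL1 by 0.14. Glutamine synthetase, GLUL, differed by -0.01 against the 7 tissues and by -0.10 against the 5.

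The redox, haem and metal list held 8 measured genes, 4 on each side, with a median of 0.0077. MAOA, which degrades monoamines, was highest in liver at 0.19 ± 0.09 (SD, n = 3 spots), next to adrenal tissue at 0.11 and mammary gland at 0.10, and differed by 0.19. Its lowest liver spot, at 0.08, lay below the adrenal mean. The first reference array had MAOA spots at 0.11, 0.16 and 0.18, and the second at -0.44, 0.33 and 0.14. NFE2L2 (NRF2), the regulator of antioxidant genes, was lowest in liver at -0.12 ± 0.08 (SD, n = 3 spots), below spleen at 0.03, and differed by -0.26, or -0.21 against the 5 tissues. All liver spots of NFE2L2 lay below the mean of every other tissue. However, an ileum spot at -0.19 lay below all of them, and a spleen spot at -0.09 below the liver spot at -0.02. Its spots read -0.50, -0.35 and -0.14 on the first reference array, and -0.54 and 0.10 on the second. The haem enzymes ALAS1 and ALAD differed by 0.03 and 0.09, the iron exporter SLC40A1 by 0.11 (0.19 against the 5 tissues) and the zinc transporter SLC39A8 by -0.21. The growth hormone receptor GHR differed by -0.05. Of 8 solute carriers, 3 lay above and 5 below with a median of -0.08, or -0.02 against the 5 tissues. SLC37A4, the glucose-6-phosphate carrier of gluconeogenesis, differed by -0.08, SLC22A4 by -0.23 with mammary gland at 1.00 (-0.13 against the 5), and SLC28A1, a nucleoside carrier, by 0.18.

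**Figure D5:**
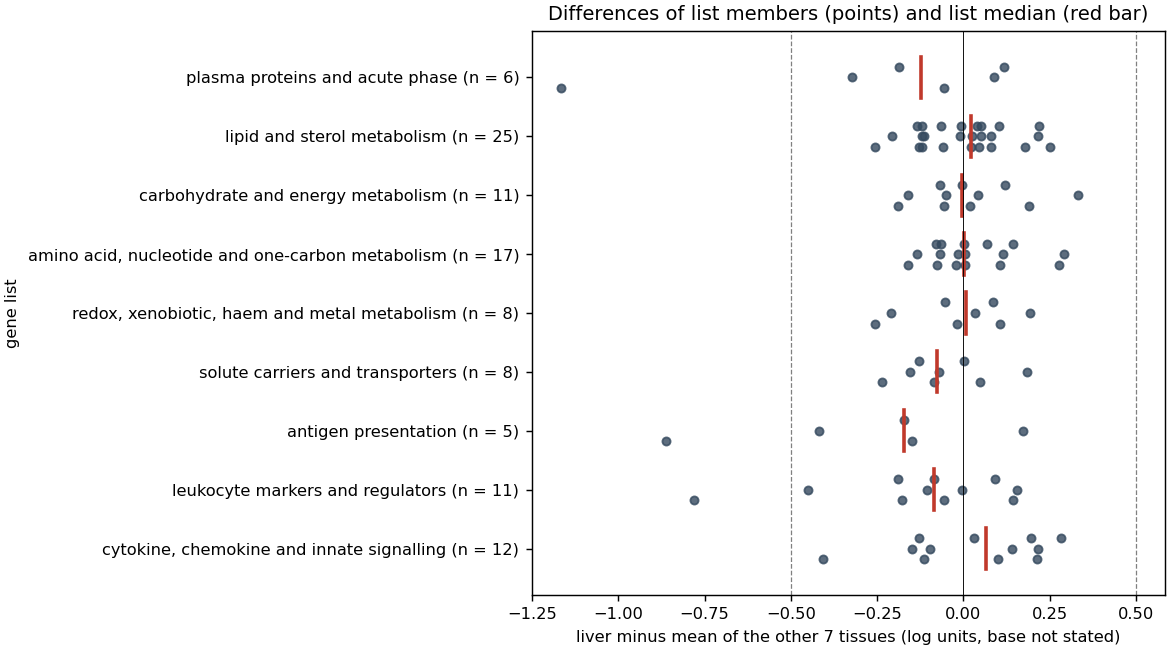
Difference between liver and the mean of the other 7 tissues (x axis, log units, base not stated) for each measured gene of the 9 lists (points), with the median of each list (red bars) and dashed lines at 0.5 and -0.5. Points past -0.5 are C3, BOLA-DRB3 and CD47, and the metabolic lists lie between -0.26 and 0.33.

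A further 28 metabolic enzymes and carriers, gathered after their values had been seen, lay 15 (53.6%) above and 13 below, beside 49.1% of all genes above. In 8 of them (28.6%) liver was the highest tissue, beside 12.8% of all genes, and 4 (14.3%) lay at least 0.3 above and 0 below, beside 6.04% and 3.45%. Since the list was drawn up with these values known, the shares describe it and no more. These 4 were PCTP, a carrier of phosphatidylcholine (0.46), the zinc transporter SLC39A11 (0.42), COQ10B, which binds coenzyme Q (0.40), and the phosphodiesterase GDE1 (0.33). PCTP was at 0.25 ± 0.10 (SD, n = 3 spots) in liver, 0.23 in ileum, 0.18 in adipose tissue, 0.10 in spleen, -0.20 in adrenal tissue, -0.41 in lymph tissue, -0.52 in mammary gland and -0.82 in thymus, so the liver hardly exceeded ileum. SLC39A11 was at 0.16 ± 0.17 (SD, n = 3 spots) in liver and between -0.41 and -0.12 in the others, with all liver spots above them. PTPMT1, a mitochondrial phosphatase of cardiolipin synthesis, differed by 0.30, and PHYH, which starts breakdown of phytanic acid, by 0.26. On the other side, sulfite oxidase SUOX differed by -0.28, PON2, a paraoxonase, by -0.23 and the peptidase LAP3 by -0.19, each lowest in liver.

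A further 16 immune genes, gathered in the same way, lay 7 above and 9 (56.2%) below, beside 50.9% of all genes below. ARPC5, described with the leading genes, was the 1 past 0.5, at 1.06 from liver spots that disagreed. The protease inhibitor SERPINB1 differed by -0.28 (-0.17 against the 5 tissues), the necroptosis kinase RIPK3 by -0.24 and IDO1, which degrades tryptophan, by -0.15, each lowest in liver. OPTN, an autophagy receptor, differed by 0.25 and was highest in liver. Of 20 matrix genes gathered likewise, 9 lay above and 11 (55%) below, beside 50.9% of all genes below. COL6A2 at -0.34 and POSTN at 0.47 were the ends. The differences of matrix genes thus ran on both sides.

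The remaining genes past 0.5 belonged to none of the lists fixed for plasma proteins, metabolism or immunity. TRA2A, a splicing regulator, was the gene above whose spots agreed and whose place did not rest on ileum: it lay at 0.58 ± 0.12 (SD, n = 3 spots) in liver, 0.21 in ileum, 0.10 in spleen, 0.01 in lymph tissue, 0.0045 in thymus, -0.02 in mammary gland, -0.05 in adipose tissue and -0.38 in adrenal tissue. Its liver spots at 0.66, 0.64 and 0.44 lay above every other tissue, and its difference was 0.60 against the 7 tissues and 0.64 against the 5. TRA2A read -0.01 and 0.20 on the reference arrays.

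ARPC5, a subunit of the actin-branching Arp2/3 complex, had the highest difference, 1.06, from 2 liver spots at 0.33 and 2.00. Its other tissues ran from -0.54 in lymph tissue to 0.74 in thymus, so the lower liver spot lay inside their range. KCTD20, at 0.52, had 5 of its 6 liver spots between -0.66 and 0.28 and the last at 4.37. Without that spot it differed by -0.23, which turns its sign. C6H4orf19 was at 0.12 in liver, 0.13 in mammary gland and -2.66 in ileum, and its difference of 0.63 was 0.32 against the 5 tissues.

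On the other side, the histone chaperone ASF1A (-0.79), the chromatin remodeller EP400 (-0.65), the elongation factor ELOA (-0.61), the microtubule protein MAP7 (-0.54) and the transcription factor KLF10 (-0.54) had the ileum as their highest tissue, at 1.07 to 3.37. EP400 was at -0.07 in liver and 3.37 in ileum, with the remaining tissues between -0.01 and 0.32. Against the 5 tissues these differences were -0.38, -0.14, -0.29, -0.44 and -0.22. ANXA8L1, an annexin, differed by -0.69 from 2 liver spots, and by -0.55 against the 5 tissues, with the liver at -0.07 below adipose tissue at 0.19 and the other 6 above that. Its adrenal spots disagreed, at -0.17, 0.21 and 2.30, so the place of adrenal tissue above adipose tissue rested on the last. The difference against the 5 tissues was not taken without that spot.

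In 44 genes (6.33%) all liver spots lay above the mean of every other tissue, and in 28 (4.03%) below it. Among them were some of smaller difference. EML6, a microtubule-associated protein, was at 0.26 ± 0.05 (SD, n = 3 spots) in liver and between -0.37 and -0.06 elsewhere. SEC63, of protein import into the endoplasmic reticulum, was at -0.24 ± 0.11 (SD, n = 3 spots) and between -0.09 and 0.16 elsewhere, and TRIT1, which modifies transfer RNA, at -0.28 ± 0.09 (SD, n = 3 spots) and between -0.09 and 0.23. Their differences were 0.43, -0.29 and -0.36.

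Milk protein genes, for which the array's mammary clones give many spots, were no exception to the small differences, apart from kappa-casein. CSN3 lay at 0.31 ± 0.04 (SD, n = 3 spots) in liver, 0.16 in spleen, -0.02 in ileum, -0.03 in lymph tissue, -0.05 in adipose tissue, -0.10 in mammary gland, -0.20 in adrenal tissue and -0.45 in thymus. Liver was thus above every other tissue, prepubertal mammary gland included, with a difference of 0.41, and of 0.43 against the 5. The other measured genes of mammary epithelium differed by -0.11 (the transcription factor ELF5) to 0.16 (LALBA, alpha-lactalbumin), with CSN1S1 at 0.08 from 18 liver spots and CSN2 at -0.02 from 9. Against the 5 tissues ELF5 differed by 0.03 and CSN2 by 0.12. All 7 genes then lay above, by 0.03 (ELF5) to 0.43 (CSN3), beside 51.4% of all genes above.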

How the data were processed

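The authors deposited 1 log ratio per spot, 3888 spots an array. How the background was corrected, how and whether ratios were normalized or centred, the log base and the dyes were not given in the sources used here. Nor was the order of channels in the ratio. Per the labels, tissue RNA was in channel 2. The reference is spelled BovMav in the label of a reference against reference array. GEO's platform annotation named no gene for 1320 spots, several genes for 30 and a single gene for 2538. Of the 695 genes measured, 692 matched the RefSeq table of ARS-UCD2.0, and 0 symbols changed. No coordinates or sequences were used.

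An exact 0 (124 to 373 spots an array) was taken as missing, each array was centred on its median, and spots were averaged per gene where each of the 8 arrays had at least 2. The 11 genes left out had fewer. The difference is liver minus the mean of the other 7 tissues. A size of 0.5 log units was used for counts, with no test and no p-value. The script was tested on simulated data with known shifts. Spots are technical, so an SD over spots leaves out the spread between animals.

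The comparison and the gene lists were chosen with earlier results of these data known. By a written rule 68 genes were followed: the hepatocyte markers, the 15 highest and 15 lowest differences, the 10 largest margins of liver above and below the next tissue, and the 4 largest differences of each list with all members past 0.5. Other genes are named as members of the lists or because their values had been seen. Alternatives were the treatment of 0, centring, scaling, averaging, the spot minimum, the mean or median of tissues, the size, and leaving out each tissue. For the hepatocyte markers, the mean of the reference arrays was also subtracted from the level on the liver array, and those values are not given here. Python 3.11.15 with pandas 2.3.3, numpy 2.4.6 and matplotlib 3.10.9 was used. The number of arrays limits the precision.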

Additional observations from a re-analysis of the deposited data

Results flagged for a closer look

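Clones for which the annotation named no gene were not part of the comparison. Of 372 measured, 5 lay at least 0.5 log units above and 4 at least 0.5 below the other tissues, and 8 of the 9 were singled out because the liver difference was also larger than their values on the reference against reference arrays. Above were clone_896 at 1.18, whose liver spots disagreed (SD 1.35), clone_717 at 0.94, clone_1262 at 0.57 and clone_1160 at 0.51. Below were clone_877 at -1.19, clone_1221 at -1.14, clone_489 at -0.60 and clone_847 at -0.53. Liver was the lowest tissue in each of the last 4, with clone_877 at -0.77 ± 0.39 (SD over spots) in liver against 1.06 in lymph tissue and 0.97 in spleen, and clone_489 at -0.39 ± 0.08 against 0.50 in lymph tissue and in spleen. Against the 5 tissues, clone_1221 was at -0.54 (ileum at 4.09), clone_847 at -0.34 (mammary gland at 1.60), clone_1160 at 0.28 (ileum at -2.15) and clone_1262 at 0.38 (ileum at -1.39), so 3 of these 4 were no longer past 0.5. The others were at 1.28 (clone_896), 0.69 (clone_717), -1.27 (clone_877) and -0.70 (clone_489). No gene was named for these clones here.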

How the results depend on the processing

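No paired analysis was possible because each tissue had 1 array, so that liver and the other tissues shared a single replicate number, which leaves no pairs to block on. Of 68 genes followed, 64 kept their sign under every alternative tried. KCTD20 turned to -0.25 with the median over spots and to -0.23 without the farthest liver spot of each gene, C3 turned to 0.067 without that spot, and BOLA and EIF2B3 turned from differences under 0.5. The last alternative, and that of liver spots with an SD under 0.3, were added after the data had been seen. The farthest-spot alternative moved the plasma protein median to 0.026, and the SD limit left 2 genes above. Scaling to the same median absolute deviation gave 16 genes above, and an antigen presentation median of -0.064, which was -0.037 with the median of the other tissues. A size of 0.3 gave 42 above and 24 below, and a size of 1 gave 1 and 1. Without ileum and mammary gland, 3 genes lay below and 3 above (50% above), liver was lowest in 109, and the medians were -0.023 for solute carriers and -0.042 for antigen presentation. Leaving out each tissue in turn gave 3 to 6 genes above and 4 to 11 below, the 4 without ileum (50% above), and an antigen presentation median of -0.25 to -0.041, the last without ileum. Of the 13 genes past 0.5, 7 remained without ileum and 12 under scaling. The farthest-spot alternative shared 10 of them, with 41.7% above. Over all alternatives other than the size, the medians ran from -0.07 to 0.03 for carbohydrate, -0.07 to 0.02 for amino acid, -0.03 to 0.05 for lipid, -0.0072 to 0.053 for redox and -0.14 to 0.03 for plasma protein genes, so the sign of these 5 was not stable. Those of leukocyte genes (-0.11 to -0.06), solute carriers (-0.10 to -0.02), antigen presentation (-0.25 to -0.04) and cytokine genes (0.03 to 0.11) kept their sign. Apart from fewer arrays or spots, the cause was not tested.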

Other observations

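The longest run of successive clones without a named gene in the deposited table was 66 clones, picked out after their values had been seen. Of the 66, 22 were at least 0.3 log units above the other tissues and 0 at least 0.3 below. The shares were 11% and 7.53% of the 372 unnamed clones measured, which include these 22. Against the 5 tissues without ileum and mammary gland, 4 of the 22 were still at least 0.3 above. The median log ratio over the spots of the run was -0.03 in liver, -0.01 in adrenal tissue, -0.13 in thymus, -0.15 in spleen, -0.16 in adipose tissue, -0.27 in lymph tissue, -0.29 in mammary gland and -0.99 in ileum.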
